A study of Mus musculus with 2 samples.

Results

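The smallest domains of the mature olfactory sensory neuron (OSN) contact map were the stretches between adjacent chromatin boundaries that lay at most 120 kb apart. They were chosen by spacing, the distance between the midpoints of neighbouring boundaries in the authors' deposited list, which is itself read from the map. Of 8038 intervals between adjacent boundaries, 441 qualified (5.49%), and they covered 46.575 of 2552 Mb (1.82%). The other 7597 intervals are called longer intervals here.

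In situ Hi-C, a ligation assay of DNA contacts in fixed nuclei, was made from OSNs of adult mice of the strain 129P2/OlaHsd, mixed sex. Cells carrying OMP-GFP, a green reporter driven from the olfactory marker protein gene that is on in mature OSNs, were sorted from the olfactory epithelium by flow cytometry. There was 1 group with 2 biological replicates, of 3000000 and 1500000 cells, fixed in 1% formaldehyde and cut with DpnII, and no untreated or mutant group. The authors pooled both replicates before boundaries were called, so no value below has a spread between animals and no test between conditions was possible. How many animals went into each sort is not stated in the labels. The list holds no expression values, so the sorted cell type was not checked against its markers.

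A boundary is a position across which contacts drop, and the stretch between neighbouring boundaries is a contact domain. In mammals many boundaries form where CTCF, a zinc finger protein that binds a directional DNA motif, stops cohesin as it extrudes a loop, and others lie at the starts of active genes. Pairs of CTCF motifs that point towards each other often anchor the ends of a loop. OSNs detect odours with cilia that carry an odorant receptor, a G protein, an adenylyl cyclase and a cyclic nucleotide-gated channel. Each OSN expresses a single olfactory receptor (OR) gene, a choice in which chromatin regulators take part.

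Sequences from 3 kinds of element in the smallest domains are printed first. The first set shows what an inward-facing CTCF motif pair looks like. CTCF core matches were exact matches, on either strand, to the 14-base core of the CTCF consensus, and 6562 were found in the genome. Both flanks of 41 intervals had such a match within 20 kb, and in 12 of these the matches faced each other across the interval. From 3 of these the pair is shown, the intervals with Trim45 and Ttf2 (chr3:100902501-101017500), with Kcna5 (chr6:126482501-126567500) and with Prkrip1 and Sh2b2 (chr5:136197501-136272500). Each sequence is read 5′ to 3′ on the strand of its match, plus at the left flank and minus at the right flank, with the core in capitals (RefSeq, GRCm38.p6).
Trim45-Ttf2 left: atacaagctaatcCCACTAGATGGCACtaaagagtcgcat
Trim45-Ttf2 right: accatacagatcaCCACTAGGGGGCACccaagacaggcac
Kcna5 left: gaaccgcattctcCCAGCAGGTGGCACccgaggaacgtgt
Kcna5 right: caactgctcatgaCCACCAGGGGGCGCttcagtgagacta
Prkrip1-Sh2b2 left: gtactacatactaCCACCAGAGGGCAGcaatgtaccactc
Prkrip1-Sh2b2 right: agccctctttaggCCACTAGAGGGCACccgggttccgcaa

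The printed stretches, each a match with the bases beside it, lay at chr3:100916928-100916967 and chr3:100999181-100999220, at chr6:126500232-126500271 and chr6:126583272-126583311, and at chr5:136201994-136202033 and chr5:136253086-136253125. The right-hand match of the Kcna5 interval lay 15.8 kb beyond the boundary midpoint, the others inside their interval. Facing did not exclude a further match that points outward at the same flank. The right flank of the Prkrip1-Sh2b2 interval also held such an outward match. A match describes sequence only, and whether CTCF was bound in OSNs was not measured.

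The second set shows the promoters of 3 members of the odour transduction pathway whose genes started in an interval of 120 kb or less. Each window runs from 250 bases before to 50 bases after the start of the gene (RefSeq, GRCm38.p6). The intervals are those on chromosomes 17, 4 and 8 described below. Capitals mark GC boxes (GGGCGG) in Gng13 and Gnb1 and CCAAT boxes (CCAAT) in Cngb1, searched on both strands.
Gng13: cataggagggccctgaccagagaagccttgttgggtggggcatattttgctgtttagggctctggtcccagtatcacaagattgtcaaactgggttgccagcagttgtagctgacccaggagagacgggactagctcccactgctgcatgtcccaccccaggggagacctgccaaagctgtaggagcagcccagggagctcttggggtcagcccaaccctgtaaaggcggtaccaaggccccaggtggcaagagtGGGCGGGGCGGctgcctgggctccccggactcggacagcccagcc
Gnb1: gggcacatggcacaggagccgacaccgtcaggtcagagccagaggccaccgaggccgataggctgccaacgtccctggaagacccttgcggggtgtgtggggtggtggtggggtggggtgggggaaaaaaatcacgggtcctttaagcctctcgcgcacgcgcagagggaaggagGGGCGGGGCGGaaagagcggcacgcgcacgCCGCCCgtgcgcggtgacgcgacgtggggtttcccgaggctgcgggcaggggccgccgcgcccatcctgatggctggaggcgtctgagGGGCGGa
Cngb1: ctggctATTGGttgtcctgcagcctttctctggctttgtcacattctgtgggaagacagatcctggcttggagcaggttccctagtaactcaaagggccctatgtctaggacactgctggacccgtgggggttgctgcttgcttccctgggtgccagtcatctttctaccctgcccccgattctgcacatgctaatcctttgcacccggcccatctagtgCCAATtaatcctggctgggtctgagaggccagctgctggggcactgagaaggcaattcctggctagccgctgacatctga

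The Gnb1 window, chr4:155491111-155491410 on the plus strand, held 31 CG dinucleotides. The Gng13 window, chr17:25716922-25717221 on the plus strand, held 6, and the Cngb1 window, chr8:95306536-95306835 on the minus strand, held 4. Across the 956 coding promoters in intervals of 120 kb or less the median was 15 CG dinucleotides in 300 bases, against 11 for promoters in longer intervals. GC boxes stood in 51.0% of the windows in intervals of 120 kb or less (95% exact interval 47.8 to 54.3%), against 43.2% in longer intervals and 43.4% of all coding promoters. CCAAT boxes stood in 38.5%, against 39.1% in longer intervals and 38.9% of all. The TATA box letters TATAAA stood in 9.94%, against 12.9% in longer intervals and 12.7% of all. TCCCNNGGGA, the palindrome recognised by EBF factors of the olfactory lineage, stood in 1.15%, against 1.00% in both longer intervals and the whole set. TAATTA, a homeodomain core, stood in 3.45%, against 5.31% in longer intervals and 5.22% of all. None of these motifs contains another.

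The third set shows microRNAs, because the intervals of 120 kb or less held 76 microRNA genes, 52 of them with a RefSeq sequence. The interval with most of them, chr14:115002501-115122500, held all 6 genes of the miR-17 cluster, and the Hoxa interval, chr6:52157501-52272500, held Mir196b. Mature sequences are printed 5′ to 3′ with the seed, bases 2 to 8, in capitals.
miR-17-5p: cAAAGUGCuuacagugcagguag
miR-20a-5p: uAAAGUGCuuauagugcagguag
miR-18a-5p: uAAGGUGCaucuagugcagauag
miR-19a-3p: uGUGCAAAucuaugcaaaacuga
miR-19b-3p: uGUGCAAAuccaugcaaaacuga
miR-92a-3p: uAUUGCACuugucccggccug
miR-196b-5p: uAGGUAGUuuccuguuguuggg

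miR-17-5p and miR-20a-5p share the seed AAAGUGC, and miR-19a-3p and miR-19b-3p share GUGCAAA. The seeds of miR-18a-5p, miR-92a-3p and miR-196b-5p each occur once among the 7. These microRNAs repress messenger RNAs that carry matches to the seed. The miR-17 cluster, known for promoting cell growth and survival, was picked for its count after the values were seen. Its interval was flanked by a Strong boundary (1.65) and a Weak boundary (0.321), and its only coding start was that of Gpc5, a cell surface proteoglycan gene with the right boundary in an intron. Per Mb, microRNA genes numbered 1.63 (95% exact Poisson interval 1.29 to 2.04) in intervals of 120 kb or less and 0.837 (0.801 to 0.874) in longer intervals.

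The lengths of the 441 intervals ran from 45 to 120 kb with a median of 110 kb, and the quartiles were 100 and 115 kb. Among longer intervals the median was 270 kb, with quartiles of 190 and 390 kb. Since length chose the members, these values only describe the choice. Spacings did not thin out at the limit: 98 intervals were 115 kb long, 89 were 120 kb, 117 were 125 kb and 102 were 130 kb. The 187 intervals just inside the limit, at 115 to 120 kb, had a median weaker flank of 0.270, a median stronger flank of 0.701 and 17.8 coding starts per Mb. The 219 just outside it, at 125 to 130 kb, had a median weaker flank of 0.276, a median stronger flank of 0.702 and 13.2 coding starts per Mb. The limit therefore divides a continuous range of spacings and not a separate class.

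**Figure D1:**
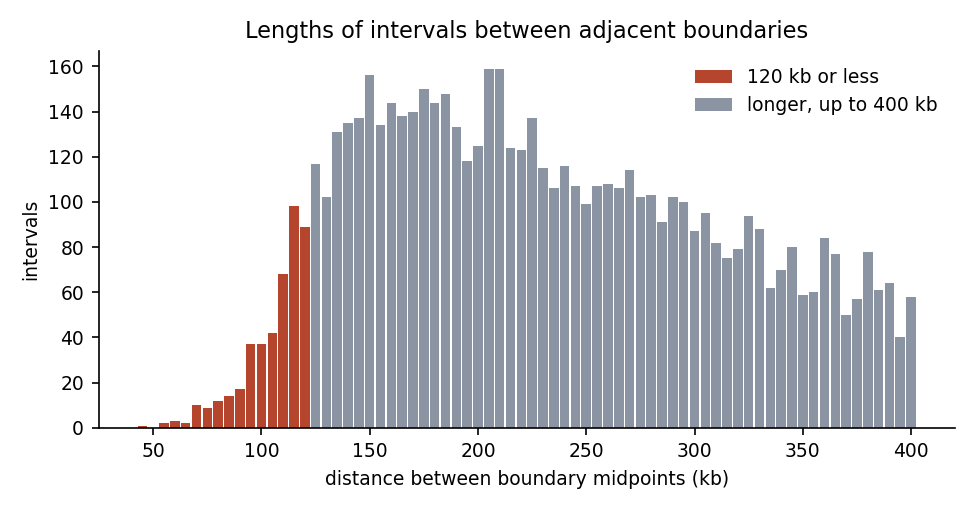
Number of intervals (vertical axis) at each distance between adjacent boundary midpoints (horizontal axis, kb, in 5 kb steps up to 400 kb). Red bars are the 441 intervals of 120 kb or less, from 45 kb up, and grey bars are longer intervals; the counts continue without a gap from 89 at 120 kb to 117 at 125 kb.

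The flanks of the smallest domains were mostly unequal, a Strong boundary on one side and a Weak one on the other. Boundary strength is the authors' score, whose scale is not stated; in the list, Weak boundaries scored 0.2 to 0.5 and Strong ones over 0.5. Of the 441 intervals, 259 had 1 Strong and 1 Weak flank (58.7%), against 48.1% of longer intervals. Both flanks were Weak in 153 (34.7%, 95% exact Clopper-Pearson interval 30.3 to 39.3%), against 24.4% of longer intervals and 24.9% of all. Both were Strong in 29 (6.58%, 4.45 to 9.31%), against 27.5% of longer intervals and 26.4% of all. Intervals given here cover counting error only. Flank scores and spacing come from the same boundary calls, so these shares are descriptions, with no test.

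The weaker flank had a median score of 0.261 (quartiles 0.226 and 0.337, highest 0.835), against 0.331 in longer intervals. The stronger flank had a median of 0.694 (quartiles 0.403 and 1.06, highest 4.13), against 0.859 in longer intervals. The weaker flank scored under 0.25, close to the lowest value in the list, in 194 intervals (44.0%, 39.3 to 48.8%), against 25.4% of longer intervals and 26.4% of all. The stronger flank scored at least 2 times the weaker in 249 intervals (56.5%), against 48.8% of longer intervals. By difference the flanks were no more unequal, with a median of 0.380 in the 441 and 0.395 in longer intervals. The left side was the stronger in 231 of 441. The 441 intervals used 854 distinct boundaries, of which 311 were Strong (36.4%, 33.2 to 39.7%), against 52.5% of the other 7204 boundaries and 50.8% of all. Their median score was 0.370, against 0.529 for the other boundaries.

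**Figure D2:**
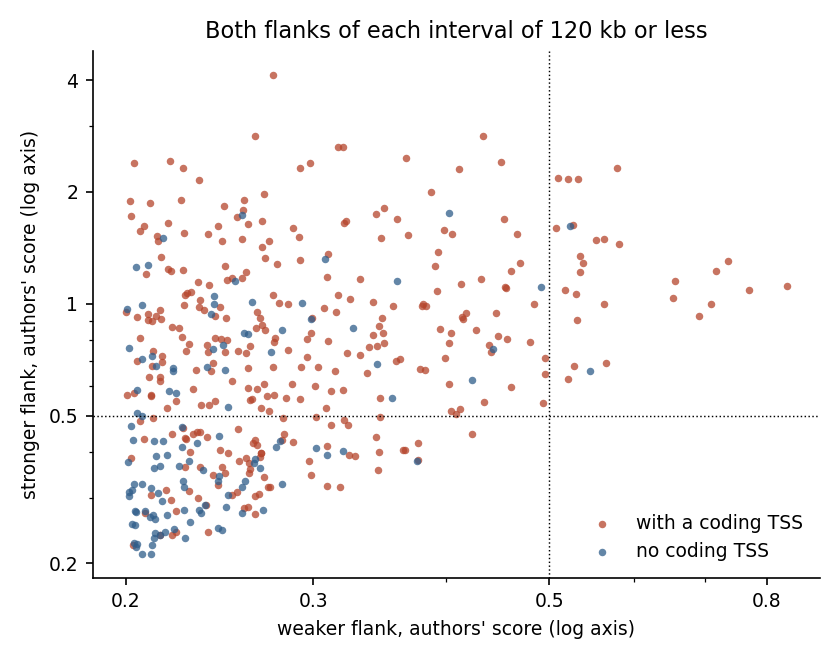
Each point is 1 of the 441 intervals, placed by the authors' score of its weaker flank (horizontal, log axis) and its stronger flank (vertical, log axis), red with a coding start inside and blue without; dotted lines mark the 0.5 limit between Weak and Strong. Most points lie left of the vertical line, blue points gather in the lower left where both flanks are Weak, and 29 points lie in the upper right.

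The share of the smallest domains that held a gene start was about that of longer intervals, although they were shorter. A coding start, the transcription start site (TSS) of a protein-coding gene record in GENCODE M21, lay in 325 of 441 (73.7%, 69.3 to 77.7%), against 72.8% of longer intervals and 72.8% of all. For a like length, windows of 110 kb were laid in each longer interval. A coding TSS lay in 52.0% of windows starting at the left boundary, in 52.0% of those ending at the right boundary and in 47.4% of those at the centre. Of the 441, 116 had no coding TSS and 89 had 1. There were 2 or more in 236 (53.5%, 48.7 to 58.2%), against 48.1% of longer intervals and 48.4% of all. There were 5 or more, up to 14, in 56 (12.7%, 9.74 to 16.2%), a lower share than the 18.1% of longer intervals and 17.8% of all. In all, 956 coding genes started in them, 4.39% of the 21755 coding genes on chromosomes 1 to 19 and X, in 1.82% of the length.

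Coding TSSs numbered 20.5 per Mb (95% exact Poisson interval 19.2 to 21.9) in intervals of 120 kb or less and 8.21 per Mb (8.10 to 8.33) in longer intervals, a ratio of 2.5. Over 20 kb away from both boundary midpoints the density was 18.3 per Mb in intervals of 120 kb or less and 7.66 per Mb in longer ones. Within 20 kb of a midpoint it was 24.1 per Mb in the smallest domains and 12.2 per Mb in longer intervals. The excess thus stood in the interior as well as beside the boundaries. By length, density was 35 per Mb at 45 to 80 kb (39 intervals), 21.5 at 85 to 100 kb, 19 at 105 to 120 kb, 14.8 at 125 to 140 kb, 14.1 at 145 to 160 kb and at 165 to 200 kb, 11.9 at 205 to 260 kb, 9.09 at 265 to 380 kb, 5.08 at 385 to 700 kb and 4.59 above that. Density was therefore graded with length over the whole list. The smallest domains were at the dense end of that gradient.

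**Figure D3:**
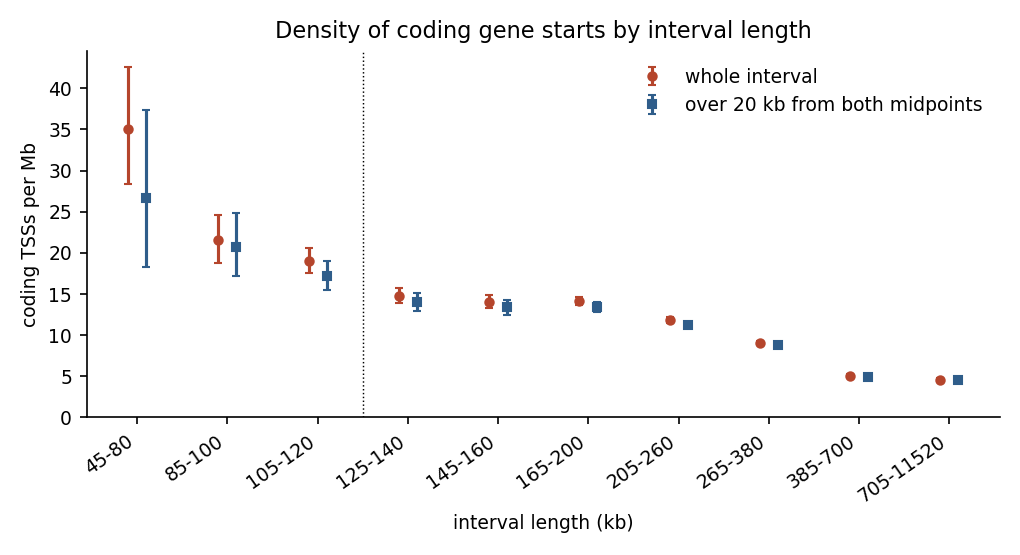
Coding TSSs per Mb (vertical axis) by interval length class (horizontal axis, kb), for whole intervals (red circles) and for the parts over 20 kb from both boundary midpoints (blue squares), with 95% exact Poisson intervals; the dotted line marks 120 kb. Density runs from 35 per Mb in the shortest class to 4.59 per Mb in the longest.

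Near the boundary the density was highest. In the first 2.5 kb inside the midpoint it was 38.1 per Mb (30.4 to 47.2) in intervals of 120 kb or less and 15.8 per Mb (14.6 to 17.1) in longer intervals. At 50 to 60 kb from the nearer midpoint it was 16.4 per Mb (12.8 to 20.8) in the smallest domains and 10.1 per Mb (9.59 to 10.6) in longer intervals. A coding TSS lay in the 5 kb bin of 113 of the 854 flanking boundaries (13.2%, 11.0 to 15.7%), against 6.8% of the other boundaries. Another 308 (36.1%) lay in the body of a coding gene without its TSS, against 35.8% of the other boundaries. No gene of any kind overlapped 361 (42.3%), against 48.0% of the other boundaries. A TSS within 5 kb of both flanking bins was found for 60 intervals (13.6%, 10.5 to 17.2%), against 5.96% of longer intervals and 6.38% of all.

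**Figure D4:**
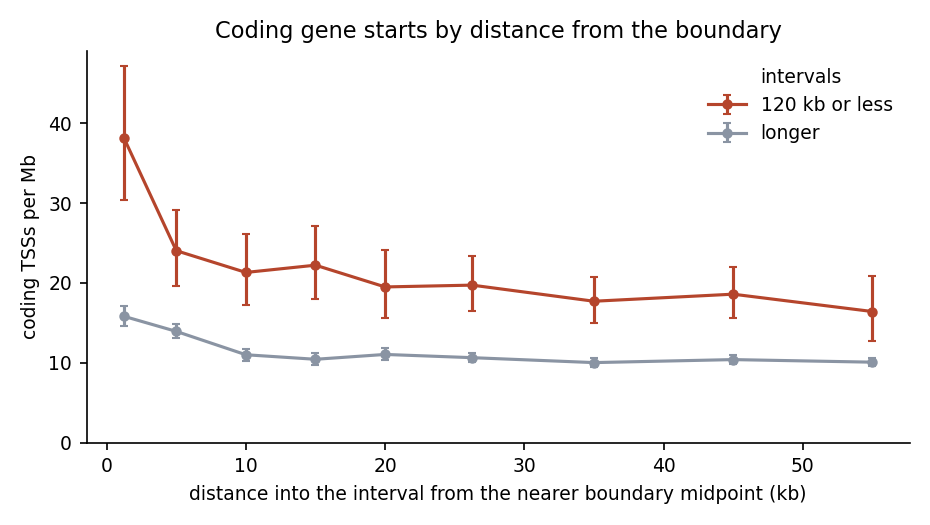
Coding TSSs per Mb (vertical axis) by distance into the interval from the nearer boundary midpoint (horizontal axis, kb), for intervals of 120 kb or less (red) and longer intervals (grey), with 95% exact Poisson intervals. Both curves are highest beside the boundary, at 38.1 per Mb in the smallest domains and 15.8 per Mb in longer intervals, and the red curve lies above the grey one at every distance drawn.

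Gene starts stood beside both kinds of flank. A coding TSS lay within 5 kb of the stronger flank in 27.4% (23.3 to 31.9%) of the 441 and of the weaker flank in 32.7% (28.3 to 37.2%), with intervals that overlapped. In longer intervals the shares were 19.2% at the stronger flank and 17.3% at the weaker. Of 190 TSSs within 7.5 kb of a midpoint, 94 lay at the stronger flank (49.5%) and 105 were transcribed into the interval (55.3%, 47.9 to 62.5%). Of all 956 TSSs, 463 were nearer to the stronger flank (48.4%). None of these shares of the TSSs stood clear of an even split by its interval.

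CTCF core matches were counted at the flanks and inside. Both flanks had a match within 20 kb in 41 intervals (9.30%, 6.75 to 12.4%), against 6.52% of longer intervals and 6.67% of all. With a window of 10 kb the share was 5.67% (3.7 to 8.25%). At the stronger flank the share with a match was 25.6% in intervals of 120 kb or less and 25.4% in longer intervals. At the weaker flank it was 24.9% (21.0 to 29.3%) in intervals of 120 kb or less and 18.1% (17.2 to 19%) in longer intervals. Of all 5 kb bins of the genome without undetermined bases, 10.1% had a match within 20 kb. The 12 facing pairs made up 29.3% of the 41 (16.1 to 45.5%), against 28.1% of the 495 longer intervals with matches at both flanks. Of the 285 matches at the flanks, 131 pointed into the interval (46.0%, 40.1 to 51.9%), against 50.3% in longer intervals. Inside the intervals matches numbered 5.99 per Mb, against 2.5 per Mb in longer intervals. At least 1 match lay inside 38.1% (33.5 to 42.8%) of the 441 and 48.1% of longer intervals, which span more sequence. Allowing 1 mismatch gave 67.1% with a match at both flanks, so this share depends on the window and on how strictly the motif is read. No value of longer intervals is given for the 10 kb window or with 1 mismatch.

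Base composition went with the gene content. The median GC content of the 441 intervals was 44.0% (quartiles 40.2 and 47.8%), against 42.1% in longer intervals, and CG dinucleotides numbered a median of 10.7 per kb in the 441 and 8.59 per kb in longer intervals. The DpnII site GATC, at which the DNA was cut, numbered a median of 2.48 per kb in intervals of 120 kb or less and 2.46 per kb in longer ones, so the density of cut sites was alike. Repeats covered a median of 30.3% of the smallest domains and 31.3% of longer intervals. Undetermined bases were in 0 of the 441 intervals. The part of GC content and gene density in where boundaries were called was not tested.

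Intervals with and without genes differed in their flanks. Of the 29 with both flanks Strong, 27 held a coding TSS (93.1%, 77.2 to 99.2%). Of the 259 with mixed flanks 218 did (84.2%, 79.1 to 88.4%), and of the 153 with both flanks Weak 80 did (52.3%, 44.1 to 60.4%). Coding TSS density was 28.6 per Mb with both flanks Strong, 23.2 with mixed flanks and 14.6 with both Weak, and median GC content was 46.9% with both Strong, 44.8% with mixed flanks and 40.3% with both Weak. The 116 intervals without a coding TSS had both flanks Weak in 73 cases (62.9%), a median GC content of 38.4% and repeats over 42.3%. The 325 with a coding TSS had both flanks Weak in 24.6%, a median GC content of 45.5% and repeats over 28.3%. Of the 116, 87 held no part of a coding gene body and 13 lay inside a single gene. Among the smallest domains there were thus gene-bearing, GC-rich intervals and AT-rich, repeat-rich ones with 2 low-scoring flanks. The split was not sharp, since 80 of the 153 intervals with both flanks Weak held a coding TSS. It was not made for longer intervals, so it is not shown to be particular to the smallest domains.

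The 441 intervals were spread over all chromosomes. They made up 5.50 ± 0.961% of the intervals of an autosome (SD over 19 autosomes), from 3.86% on chromosome 12 to 7.34% on chromosome 7. On chromosome X there were 25, or 5.56%. Coding TSS density was higher in intervals of 120 kb or less than in longer ones on 20 of 20 chromosomes. On chromosome 17 it was 40.3 per Mb in intervals of 120 kb or less and 10.9 per Mb in longer ones. On chromosome 16 it was 7.55 per Mb in the smallest domains and 7.0 per Mb in longer intervals, and on X 6.26 per Mb in the smallest domains and 5.68 per Mb in longer intervals. Most of the 441 stood alone: 386 had no neighbour of 120 kb or less, 26 runs held 2 and 1 run held 3. Intervals next to one of them had a median length of 235 kb, against 260 kb for all intervals.

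The genes that started there were somewhat shorter at the long end. Their median length was 15.3 kb, against 17.7 kb for coding genes starting in longer intervals, and the upper quartile was 31.8 kb, against 46.6 kb in longer intervals. Genes over 120 kb numbered 27 of the 956, against 1932 of the 20580 that started in longer intervals. The body of 832 of the 956 genes (87.0%) lay within the interval and its flanking bins, widened by 5 kb. That share was not counted in longer intervals, so it is not shown to be particular to the smallest domains. Interval length limits which genes can fit, so the lengths of genes contained in the interval are partly set by the rule. A divergent coding start within 1 kb was found for 79 of 956 genes (8.26%, 6.60 to 10.2%), against 6.84% in longer intervals. Of the 236 intervals with 2 or more coding TSSs, 57 had them all on 1 strand (24.2%, 18.8 to 30.1%), a share not counted in longer intervals.

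Other gene kinds followed coding genes to different degrees. Antisense RNA genes numbered 1.98 per Mb (1.59 to 2.42) in intervals of 120 kb or less and 1.14 per Mb in longer intervals. Small nucleolar RNA genes, which guide RNA modification, numbered 0.923 (0.668 to 1.24), against 0.583 per Mb in longer intervals. Long intergenic RNA genes numbered 2.53 (2.10 to 3.03), against 2.06 per Mb in longer intervals. Processed pseudogenes, copies of messenger RNA pasted into the genome, numbered 4.10 (3.54 to 4.73) per Mb, against 3.77 per Mb in longer intervals. Unprocessed pseudogenes numbered 0.687 (0.470 to 0.970) per Mb, against 0.748 per Mb in longer intervals. For both kinds of pseudogene the exact interval took in the level of longer intervals.

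Genes of odour detection were among those that started in the smallest domains. Of 22 genes in the OSN function list, 4 did (18.2%, 5.19 to 40.3%), against 4.39% of all coding genes: Gng13, Gnb1, Cngb1 and Rtp2. Gng13 encodes the gamma subunit and Gnb1 the beta subunit of G proteins that act with the olfactory alpha subunit. Cngb1 encodes a subunit of the cyclic nucleotide-gated channel, and Rtp2 a protein that helps receptors reach the cell surface. The list was written with earlier results of these data known, and no test of it was made.

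Gng13 lay in chr17:25712501-25832500, 120 kb long, between boundaries scoring 1.03 on the left and 0.653 on the right, both Strong. Its TSS stood 4.67 kb inside the left midpoint and it was transcribed into the interval. With 14 coding TSSs this was the most gene-rich of the 441, and the right boundary covered exons of Jmjd8, Stub1 and Rhbdl1. Other genes in it were Mslnl, Fbxl16, Narfl and Chtf18. It was also 1 of the 8 intervals with the highest weaker flank. GC content was 52.5%, above the upper quartile of the 441.

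Gnb1 lay in chr4:155467501-155582500, 115 kb long, between Strong boundaries of 1.15 and 0.656. Its gene body covered 59.1% of the interval and its TSS stood 23.9 kb from the left midpoint. The left bin covered exons of Cfap74 and Tmem52 and the start of Tmem52. The right bin lay in an exon of Nadk, the gene of a kinase that makes NADP. The interval held 3 coding TSSs, all transcribed on the plus strand.

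Cngb1 lay in chr8:95227501-95332500, 105 kb long, between Strong boundaries of 0.925 and 0.691. Its body covered 64.3% of the interval, and its TSS stood 25.9 kb from the right midpoint. The left bin overlapped no gene. The right bin held the divergent starts of Usb1, which trims U6 RNA, and Zfp319, a zinc finger gene, and Tepp started between these and Cngb1. Rtp2 lay in chr16:23887501-23982500, 95 kb long, with Sst, the somatostatin gene. Its flanks were unequal, a Weak boundary of 0.320 over Sst on the left and a Strong one of 2.64 in an intron of Bcl6 on the right. Rtp2 is named because it completes the count of 4, after its values were seen.

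**Figure D5:**
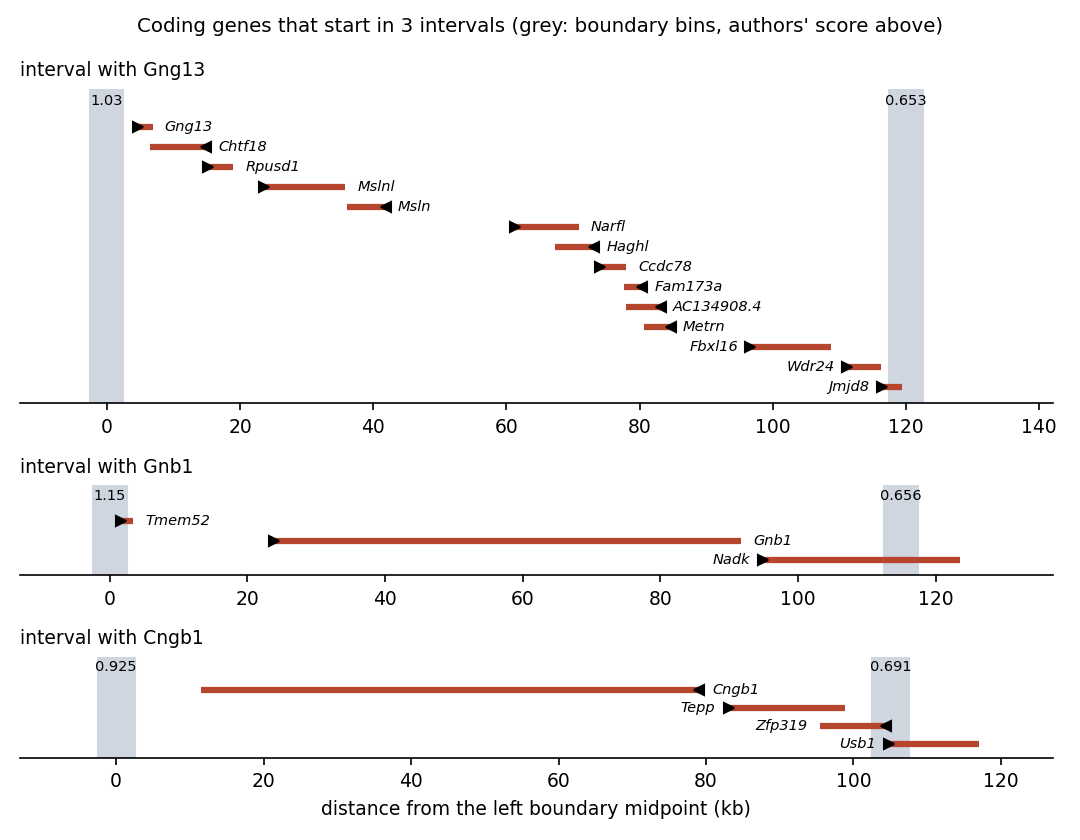
Coding genes that start in 3 intervals, as red bars with arrowheads at the TSS pointing in the direction of transcription, against distance from the left boundary midpoint (horizontal axis, kb); grey bands are the 5 kb boundary bins with the authors' score above them. The Gng13 interval holds 13 other starts, that of Gnb1 2 and that of Cngb1 3.

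Of 30 genes of OR choice and nuclear architecture, 2 started in the smallest domains (6.67%, 0.818 to 22.1%). Kdm1a, a histone demethylase known from work in mouse OSNs on OR choice, lay in chr4:136512501-136632500 with Lactbl1 and Tex46. Its left boundary was Weak at 0.298 in an intron of Luzp1, and its right boundary scored 2.39 over an exon of Lactbl1. Nipbl, the cohesin loader, lay in chr15:8347501-8452500 between a Weak boundary of 0.495 in its own intron and a Strong one of 0.716, 8.04 kb from its TSS. Its gene body covered 92.3% of the interval and ran on past the left boundary.

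Markers of less mature neurons were also found there. Of 14 immature neuron genes, 3 started in intervals of 120 kb or less (21.4%, 4.66 to 50.8%). Stmn2, a microtubule regulator, stood as the single coding TSS of chr3:8492501-8612500, between boundaries of 0.412 and 0.521. Stmn4, of the same family, lay with Trim35 in chr14:66287501-66392500, between 0.431 and 1.17. Gng8, a G protein gamma subunit of immature OSNs, lay with Prkd2, Strn4 and Dact3 in chr7:16802501-16922500, between 0.338 and 0.762. Of 14 progenitor genes, 2 did (14.3%, 1.78 to 42.8%): Neurog1, a transcription factor of neuronal precursors, and Tead2, a partner of the Hippo pathway. Neurog1 stood alone in chr13:56187501-56277500 between 0.745 and 0.212, and its gene body filled 1.87% of the interval.

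Of 28 housekeeping genes 2 did (7.14%, 0.877 to 23.5%), Rpl13a and Tubb5. Of 18 markers of blood, immune, endothelial and glial cells 1 did (5.56%, 0.141 to 27.3%), Aif1, a macrophage gene. None of 23 axon guidance genes (upper limit of the exact interval 14.8%), 11 horizontal basal cell genes (28.5%) and 16 sustentacular and gland genes (20.6%) did. These lists are small. The OSN function and immature neuron shares rested on 4 and 3 genes. Their lower limits were 5.19% and 4.66%, beside the 4.39% of all coding genes. The intervals of the other 7 of the 9 written lists took that share in. The lists were written with earlier results known and no allowance was made for their number, so no enrichment was tested.

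Receptor and other gene families were set against the 4.39% of all coding genes that started in the smallest domains. Members of clustered families lie side by side, so the counts are not independent and the exact intervals are too narrow. Of 1135 coding OR genes, 25 started there (2.20%, 1.43 to 3.23%), in 8 intervals. The largest set was 7, in chr7:103707501-103827500 (Olfr243, Olfr628, Olfr629, Olfr630, Olfr69, Olfr68 and Olfr67), between Weak boundaries of 0.228 and 0.431. Of the 8 intervals, 4 had both flanks Weak, beside 34.7% of the 441 and 24.9% of all intervals. Repeats covered 28.5 to 55.5% of them, beside a median of 30.3% over the 441. Of 209 vomeronasal type 1 receptors 0 did (upper limit 1.75%), and of 122 type 2 receptors 2 did (1.64%, 0.199 to 5.80%). Of 57 clustered protocadherins 0 did (upper limit 6.27%). Zinc finger genes named Zfp numbered 11 of 394 (2.79%, 1.40 to 4.94%), and histone genes 1 of 78 (1.28%, 0.0325 to 6.94%). The exact intervals of the OR and type 1 receptor shares lay below 4.39%, and those of the type 2 receptors, protocadherins, Zfp genes and histone genes took it in.

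Among other families the shares were 7 of 82 cytosolic ribosomal protein genes (8.54%, 3.5 to 16.8%), 5 of 78 mitochondrial ribosomal protein genes (6.41%, 2.11 to 14.3%), 15 of 371 solute carriers (4.04%, 2.28 to 6.58%), 3 of 100 cytochrome P450 genes (3.0%, 0.623 to 8.52%) and 2 of 53 keratins (3.77%, 0.460 to 13%). Hox genes stood at 11 of 39 (28.2%, 15.0 to 44.9%), all in a single interval, so the 11 share 1 location and are no independent sample. The interval, chr6:52157501-52272500, held 13 coding TSSs, among them Hoxa3, Hoxa10 and Hoxa9, transcription factors that set position along the body axis. Its left boundary was Strong (0.989). Its right boundary was Weak (0.227), 11.6 kb beyond the TSS of Hoxa13. Repeats covered 13.6% of it.

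The interval of Tead2 and Rpl13a, chr7:45122501-45217500, held 12 coding TSSs in 95 kb, among them Ccdc155, Aldh16a1 and Slc17a7. Its left boundary was Weak (0.235), and its Strong right boundary (1.02) held the start of Tead2. In the major histocompatibility region, chr17:34552501-34667500 held 11 coding TSSs, with Notch4, Ppt2, Agpat1 and Atf6b, between 2 Strong boundaries of 1.48 and 0.554. The interval of the cytokine gene Tnf, chr17:35167501-35247500, packed 9 into 80 kb, with Nfkbil1, Ddx39b and Aif1, between 0.209 and 1.20. The interval of Tubb5, chr17:35817501-35922500, held 11, with Mdc1, Ppp1r10 and Dhx16, between 0.984 and 0.357.

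The 8 shortest intervals were 45 to 65 kb long, and in 7 of them exactly 1 flank was Strong. The shortest, chr6:86362501-86407500, held 4 coding TSSs between boundaries of 1.71 and 0.254. They belong to Tia1, an RNA-binding protein of stress granules, Pcyox1, Snrpg, a spliceosome subunit, and Fam136a. Smarca5, a chromatin remodeller, filled 74.5% of chr8:80687501-80742500, between 0.620 and 0.215. Map3k7, a kinase of inflammatory signalling, filled 97.3% of chr4:31962501-32022500, between 0.278 at its start and 1.28 at its end. The Map3k7 interval thus nearly coincided with that gene. Tm2d3 (chr7:65647501-65707500) and Ypel5 (chr17:72777501-72837500) were the single starts of 2 further 60 kb intervals, with flanks of 0.390 and 1.26 and of 2.42 and 0.220. Ypel5 started 1.05 kb from the Weak midpoint and was transcribed out of the interval.

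Steap4, a metalloreductase gene, stood alone in chr5:7957501-8022500, 65 kb long, between 0.742 and 0.248. The other 65 kb interval, chr15:76657501-76722500, held 9 coding TSSs, among them Ppp1r16a, Cyhr1, Kifc2 and Lrrc14, between 0.263 and 0.553. The eighth, chrX:24242501-24297500, was unlike the others. It held no coding TSS, repeats covered 77.0% of its 55 kb, the highest share of the 441, and both flanks were Weak at 0.273 and 0.257.

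The 8 intervals with the highest weaker flank included those of Gng13, Gnb1 and Cngb1. The highest was chr10:61062501-61177500, with flanks of 1.12 and 0.835, which held Sgpl1, an enzyme that breaks down sphingosine phosphate, Tbata and Pcbd1. Cd82, a tetraspanin gene, was the single start of chr2:93382501-93497500, between 1.09 and 0.771. Zdhhc7, a palmitoyltransferase gene, lay with Fam92b in chr8:120072501-120177500, between 1.30 and 0.736, the right midpoint 0.035 kb from the TSS of Fam92b. Zfp787, Zfp444 and Galp lay in chr7:6097501-6207500, between 1.22 and 0.716. Pink1, a kinase of mitochondrial quality control, lay with Cda and Fam43b in chr4:138317501-138432500, between 0.709 and 0.996. The highest single flank, 4.13, lay over an exon of Trpm8 and closed chr1:88212501-88307500, which also held Mroh2a and Hjurp and whose left boundary scored 0.275. That interval was picked after its values were seen.

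A single coding gene that started inside filled at least 70% of the length in 21 intervals (4.76%, 2.97 to 7.19%). Longer intervals were not counted in this way. Nup210l filled chr3:90097501-90207500, between 0.349 over Tpm3 and 0.836 in its own exon. Unc5b, a netrin receptor gene, covered 81.2% of chr10:60757501-60842500, between 2 Strong boundaries of 1.63 and 0.526 that overlapped no coding gene. Opa1, the mitochondrial fusion gene, covered 72% of chr16:29572501-29677500, between 0.348 and 1.5. Mcm9 filled most of chr10:53512501-53632500, which it shared with Asf1a, between 0.773 and 0.439. Cdkl3 filled most of chr11:52002501-52102500, with Ppp2ca at its right end, between 0.984 and 0.380.

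Conversely, 21 intervals lay wholly inside 1 gene (4.76%, 2.97 to 7.19%), against 4.19% of longer intervals and 4.22% of all. In 18 of the 21 the gene was coding, and in 8 of the 21 a coding TSS lay inside. Genes and gene models that span the starts of other genes are thus part of this share. Frmd4b, a scaffold protein gene, contained chr6:97412501-97532500, between 0.443 over an exon and 0.755 in an intron, with no other coding start. Arhgap26 contained chr18:38832501-38942500, between 0.514 and 0.404, in which Fgf1, a fibroblast growth factor gene, also started and covered 82.5%. The other 2 of the 4 with the highest weaker flank lay inside Gm20388, a gene model on chromosome 8 that spans many other genes. They were the interval of Zdhhc7 and chr8:121847501-121952500 with Banp, Car5a and Slc7a5 (0.563 and 1.5).

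Runs of consecutive small intervals were few. Small intervals made up 5.49% of all intervals, and how many runs that share alone would give was not worked out. The run of 3 lay on chromosome 19 from 6127501 to 6477500, with boundaries of 0.435, 0.227, 1.06 and 0.317 from left to right. Its intervals held 7, 4 and 4 coding TSSs. The first held Majin, Batf2, Atg2a and Snx15, the second Ehd1, Cdc42bpg, Map4k2 and Men1, the menin tumour suppressor gene, and the third Nrxn2, a presynaptic adhesion gene, Rasgrp2, Sf1 and Pygm. The inner boundaries lay over exons of Atg2a and Sf1, each within 1.19 kb of that gene's TSS. On chromosome 2, Sall4 (chr2:168762501-168877500) and Zfp64 (chr2:168877501-168972500) stood in adjacent intervals, with boundaries of 0.284, 0.260 and 1.64. On chromosome 3, a pair without any coding TSS (chr3:41777501-41892500 and chr3:41892501-42007500) had boundaries of 1.73, 0.257 and 0.322 and repeats over 71.7% and 43.0% of its length.

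The 6 facing CTCF pairs with the highest weaker flank gave intervals of 75 to 115 kb. Trim45 and Ttf2 lay between boundaries of 1.28 and 0.538. Kcna5, a potassium channel gene, lay alone between 1.06 and 0.529. Prkrip1 and Sh2b2 lay between 0.349 and 0.782. The others were chr8:11407501-11492500 with Rab20 (0.652 and 0.337), chr8:94812501-94922500 with Ciapin1, Coq9, Polr2c and Ccdc102a (0.296 and 0.719), and chr17:31247501-31352500 with Slc37a1 and Rsph1 (0.346 and 0.870). In 2 of the 6 both flanks were Strong, beside 6.58% of the 441. The 6 were picked for a high weaker flank, which favours such intervals, so the count follows from the choice.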

How the data were processed

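Boundaries came from 1 list of 5 kb bins on GRCm38, with a class and a score per boundary. Pooling of the replicates into 1 map by the authors is stated in the design text. The caller and mapper were not given in the sources used here, nor were the window and the contact depth. The score is the authors' own, as deposited, and serves only to rank boundaries within this list. The class, deposited by the authors, followed the score at 0.5.

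Adjacent boundaries on a chromosome were paired, and intervals run from midpoint to midpoint. Coding TSSs were 5′ ends of GENCODE M21 gene records. Genome sequence and repeats came from RefSeq GRCm38.p6, while the mice were of another strain than that assembly. Shares have exact Clopper-Pearson intervals and densities exact Poisson intervals (95%), both for counting error only; neighbouring genes and intervals are not independent. There is 1 pooled list, so no p-value was computed. Python 3.11.15, pandas 2.3.3 and SciPy 1.17.1 were used, and the procedures were tested on simulated data.

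Members and the 21 gene lists (9 written out, 12 by symbol pattern) were chosen with earlier results of these data known. Named intervals were the 8 shortest, the 8 with the highest weaker flank, the 4 with most coding TSSs, up to 3 per written list, up to 3 runs, 6 filled by 1 gene, 4 inside 1 coding gene and 6 with facing CTCF matches, with at most 4 genes each, longest first. Alternatives changed the length limit, its measure, the boundary class, chromosomes, the rule on undetermined bases, TSS rule, windows and motif rule. Contact matrices and tracks were not used here.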

Additional observations from a re-analysis of the deposited data

How the results depend on the processing

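Of 62 alternative values, 44 stayed within their counting interval or within 1.5 times the count, and 18 moved. Leaving out intervals with undetermined bases could change nothing, since 0 of the 441 had any, and its values are among the 44. TSS density was set against the remaining intervals only with limits of 100 and 150 kb and on autosomes alone. The other values, and TSS density at the other settings, were not set against longer intervals at the same setting. Whether those contrasts kept their direction is therefore not shown. With a limit of 100 kb, 144 intervals remained, 77.8% with a coding TSS and 24.5 coding TSSs per Mb. With 150 kb there were 1219, with 16.3 TSSs per Mb, 12.1% with both flanks Strong, a median weaker flank of 0.274 and 10.4% with a TSS at both flanks. The ratio of TSS density to the remaining intervals was 2.93 at 100 kb and 2.06 at 150 kb. Measuring length between the facing edges of the bins gave 18.4 TSSs per Mb. With Strong boundaries alone, 29 intervals remained, 93.1% with a TSS, 28.6 TSSs per Mb, a median weaker flank of 0.546 and 46.9% GC. They are the same 29 intervals described above as having both flanks Strong, a subset of the 441 and no separate check. Their weaker flank is over 0.5 by construction. In this setting 3.45% (0.0873 to 17.8%) had a TSS at both flanks. That share lay below the 5.96% of longer intervals at the main setting, which its interval took in. A TSS window of 20 kb gave 37.6% at both flanks. A CTCF window of 10 kb gave 5.67% with matches at both flanks, and 1 mismatch gave 67.1%. The cause was not tested beyond what each setting changes by construction. No paired analysis was possible because both replicates were pooled into 1 list before deposit, and no replicate could be left out. Depth is unknown, so the shortest spacing that the map could resolve is unknown too.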
